A study of Mus musculus with 18 samples.

Results

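Embryoid bodies (EBs) made from Zeb2 knockout (KO) mouse embryonic stem cells (ESCs) and collected on day (d) 6 of a neural differentiation were compared with control (Ctrl) EBs of d4. The question was whether KO cells at d6 resembled Ctrl cells of an earlier day or were in a state that Ctrl cells did not show. The comparison used 6 of the 18 RNA-seq libraries, 3 of KO d6 and 3 of Ctrl d4, and all 10965 genes of the deposited table in TPM (reads per gene length, scaled to a fixed total in each library). The other 12 libraries, 3 each of Ctrl d0, Ctrl d6, KO d0 and KO d4, served to place KO d6 along the course of both genotypes. All cells were of strain CD1. KO cells carried the genotype Zeb2 -/- and Ctrl cells Zeb2 fl/fl, in which both alleles hold loxP sites and stay intact. KO lines were made from such control lines by transient expression of Cre, and the sources used here do not say which line, or how many, gave the sequenced RNA. At d0 the cells were ESCs in 2i + LIF, a medium with inhibitors of MEK and GSK3. They were then grown as EBs in medium with 15% serum until d4, when the medium was changed to N2B27 with 500 nM retinoic acid. Ctrl d4 had therefore seen serum only, KO d6 had also had 2 days of N2B27 with retinoic acid, and genotype, day and medium cannot be told apart within this pair of groups.

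Zeb2 is a zinc finger protein that binds CACCT sequences and mostly represses transcription, and its best known targets are epithelial genes such as Cdh1. ESCs that leave the naive state first pass through a state like that of the postimplantation epiblast, in which naive factors are lost, Otx2 and Fgf5 appear, and de novo DNA methyltransferases are raised. Cells then take up neural, mesodermal or endodermal fates, and retinoic acid drives Hox genes and a set of direct target genes during neural differentiation.

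Libraries held 14340469 to 15617675 reads on these genes in Ctrl d4 and 11100414 to 11877810 in KO d6. Zeb2 itself (GRCm38, chr2:44983632-45117395) was measured at 0.717, 0.594 and 0.733 TPM in the KO d6 libraries, from 71 to 84 reads, and at 1.23, 1.39 and 1.47 TPM in Ctrl d4. The groups did not overlap, and the log2 difference, KO d6 minus Ctrl d4 as throughout, was -0.49 ± 0.12 (SE; limma adjusted p = 0.00152), a call that was lost with quantile normalization (limma adjusted p = 0.29), with a pseudocount of 5 (0.0107) and in a fit of the 6 libraries alone (0.0368). These levels count reads over the whole gene, so transcript left outside the deleted part of the gene is included, and the mean in Ctrl d6 was 7.66 TPM. KO d6 carries the same stage label, neural progenitor, as Ctrl d6, although most neural progenitor genes were below Ctrl d6 and near Ctrl d0, as described with the neural genes.

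Genes of 4 chromosomes shifted together between libraries, and the 2 groups compared stood on opposite sides. Relative to the median of each library, genes of chromosome 8 lay 0.23 log2 units (all 3 libraries) above their mean over all libraries in Ctrl d4 and between -0.26 and -0.24 in KO d6. Chromosome 12 showed 0.23 to 0.24 in Ctrl d4 against -0.24 to -0.19 in KO d6, and chromosome 6 showed 0.17 to 0.20 against -0.16 to -0.13. Chromosome 17 went the other way, with -0.15 to -0.14 against 0.07 to 0.11. With the labels as deposited, the shift did not follow genotype or day. KO d0 and KO d4 had the direction of Ctrl d4 on each of these chromosomes, whereas Ctrl d0 and Ctrl d6 had that of KO d6. On chromosome 8 the median was 0.22 in KO d0 and 0.20 in KO d4, and -0.18 in Ctrl d0 and -0.23 in Ctrl d6. The sides would match genotype if the labels of Ctrl d4 and KO d6 were exchanged. Sample identity was not tested, so every direction given here rests on the labels as deposited. In KO d6 against Ctrl d4, 465 of 668 genes of chromosome 8 (69.6%), 267 of 440 of chromosome 12 (60.7%) and 308 of 560 of chromosome 6 (55%) were lower. The part of these shifts in single genes was not tested, but the counts over all genes and in each list were also taken with chromosome medians removed and with the 4 chromosomes left out.

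**Figure D1:**
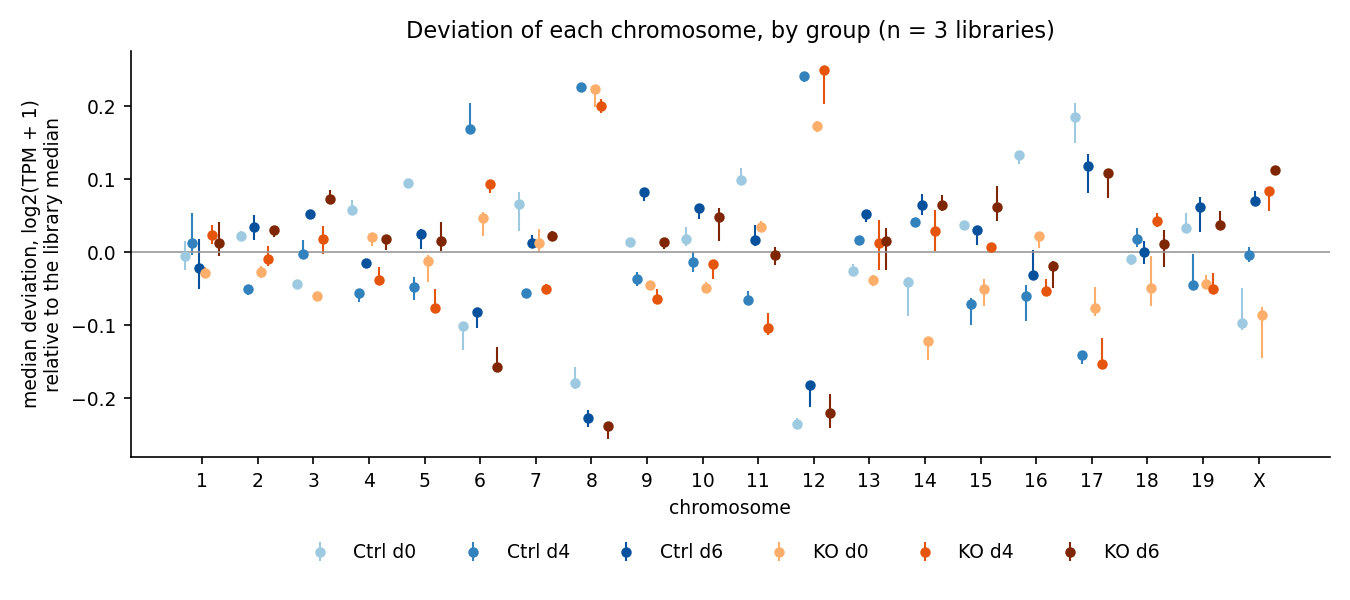
Median deviation of the genes of each chromosome from their mean over all libraries, in log2(TPM + 1) relative to the median of the library (vertical axis), for each chromosome (horizontal axis) and group. Points are the median of 3 libraries and bars run from the lowest to the highest library, and on chromosomes 8 and 12 the groups Ctrl d4, KO d0 and KO d4 sit above 0 and the others below.

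KO d6 differed from Ctrl d4 in most of the genes measured. At a limma adjusted p below 0.01, 6103 of 10965 genes (55.7%) differed between KO d6 and Ctrl d4, 2191 higher (20%) and 3912 lower (35.7%) in KO d6. The direction of this split depended on scaling, because the median log2 difference over all genes was -0.13, and 50.3% instead of 35.9% of the called genes were higher after median-ratio rescaling, which moved that median to 0.03. With chromosome medians removed, 5787 genes differed and 50.1% of them were higher, and without the 4 chromosomes the share was 40.7% of 4570. Counting only log2 differences beyond 1 in either direction at an unadjusted limma p below 0.01, the number of genes was 729 higher (6.65%) and 1134 lower (10.3%), 1863 in all, and this split turned as well, to 945 higher and 841 lower after median-ratio rescaling. The 3 libraries of each group did not overlap for 7345 genes (67%), 2747 of them higher (25.1%) and 4598 lower (41.9%) in KO d6.

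Of the 5 other groups KO d4 was the nearest to KO d6, and Ctrl d4 and Ctrl d6 lay at like distances. The number of genes that differed was 4540 (41.4%) against KO d4, 5731 (52.3%) against Ctrl d6, 6103 against Ctrl d4, 6912 (63%) against Ctrl d0 and 7428 (67.7%) against KO d0. These comparisons share the KO d6 libraries. On the 4 shifted chromosomes Ctrl d6 had the direction of KO d6 and Ctrl d4 the opposite one. Without these chromosomes 4573 genes differed from Ctrl d6 and 4570 from Ctrl d4, and with chromosome medians removed 5621 and 5787. The 9 pairs of a KO d6 and a Ctrl d4 library had a median Spearman rho of 0.904 across genes (0.895 to 0.914), and the 9 pairs with Ctrl d6 had 0.898 (0.891 to 0.905). By the mean absolute log2 difference the order of those days turned, with a median of 0.656 for Ctrl d4 (0.606 to 0.699) and 0.635 for Ctrl d6 (0.614 to 0.664). The ranges overlapped on both measures, so neither day was nearer beyond the spread between libraries, while pairs with KO d4 had a mean absolute difference of 0.502 and pairs within KO d6 of 0.257. Genes are not independent replicates, and no test was made of these distances.

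Taken gene by gene, KO d6 matched no single Ctrl day. Its mean was nearest to Ctrl d6 for 4177 genes (38.1%), to Ctrl d4 for 3481 (31.7%) and to Ctrl d0 for 3307 (30.2%). These nearest-day counts include the shifted chromosomes, where Ctrl d0 and Ctrl d6 had the direction of KO d6, and were not taken without them. The Ctrl course includes Ctrl d4, which had the direction of KO d0 and KO d4 on those chromosomes. With the labels as deposited, a further set lay outside that course. In KO d6, 736 genes (6.71%) were higher than in Ctrl on each of d0, d4 and d6, and 958 (8.74%) were lower on each day. The limma adjusted p was below 0.01 for each day. The larger of these counts depended on scaling, with 893 higher and 758 lower after median-ratio rescaling and 925 and 743 with chromosome medians removed. All 3 KO d6 libraries were above all 9 Ctrl libraries for 1010 genes (9.21%) and below all 9 for 1292 (11.8%). Which of these patterns a gene showed differed between gene groups, as follows.

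**Figure D2:**
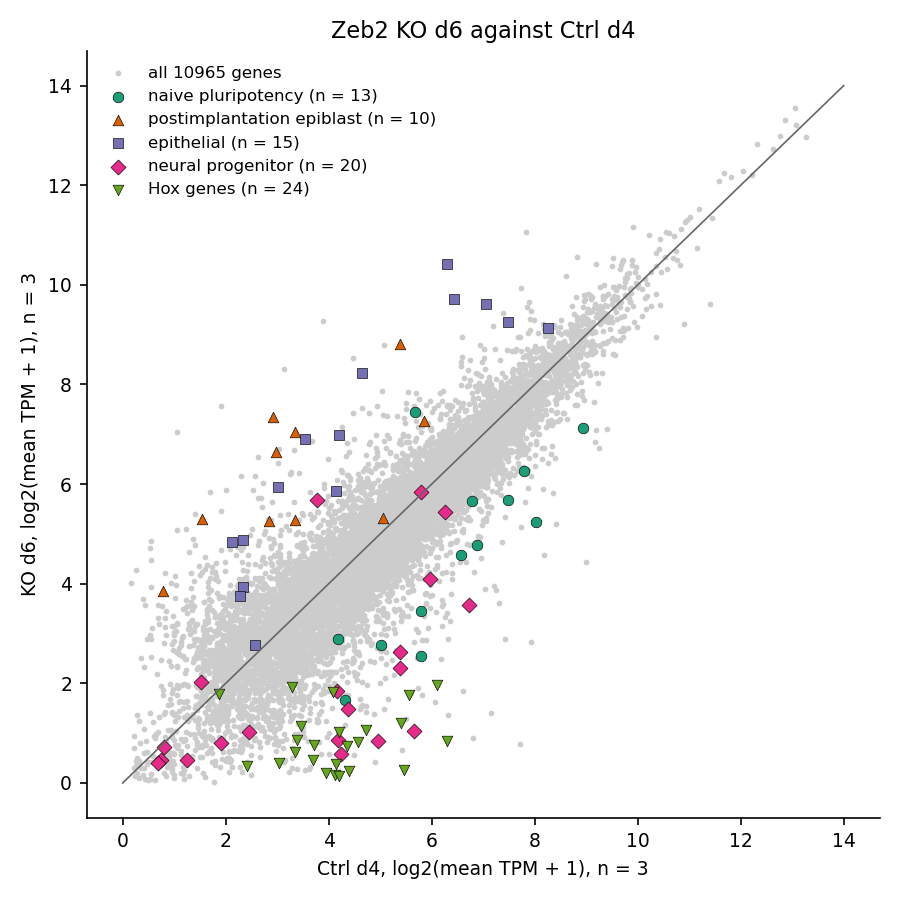
Mean level of each gene in Ctrl d4 (horizontal axis) and KO d6 (vertical axis), both as log2(mean TPM + 1) of 3 libraries, with 5 gene lists marked and the line of equal levels. Epiblast and epithelial genes lie on or above the line, while the Hox genes and all naive pluripotency genes but Fgf4 lie below it.

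Naive pluripotency genes were lower in KO d6 than in Ctrl d4 and close to Ctrl d6. RNA came from whole EBs, so fewer cells of a type and less RNA per cell cannot be told apart, here and in every list below. Counts of each list stand beside 20% higher and 35.7% lower over all genes. Of 13 genes that mark ground-state ESCs, 12 fell and 1 rose, with a median log2 difference of -2.01, and 12 were nearest to Ctrl d6. Against Ctrl d6 the median of these genes was -0.12. Esrrb, a nuclear receptor of the naive network, was at 35.4, 37.7 and 37.2 TPM in KO d6 and at 281, 277 and 224 TPM in Ctrl d4. No KO d6 library came near the lowest Ctrl d4 library, and the log2 difference was -2.79 ± 0.10 (limma adjusted p = 4e-12). Prdm14, which holds down the FGF pathway and DNA methyltransferases in ESCs, was at 6.02, 4.58 and 3.86 TPM against 59.9, 61.3 and 42.8 TPM, a difference of -3.26 ± 0.18 (limma adjusted p = 3.98e-10). Klf4, also a naive factor, was lower than in Ctrl on every day, with 5.81 ± 0.81 TPM (SD, n = 3) against 31.5 ± 5.74 TPM in Ctrl d4 and 11 ± 0.616 TPM in Ctrl d6. Tfcp2l1 (-2.01), Nr5a2 (-2.63), Tcl1 (-2.32), Nr0b1 (-2.09), Klf5 (-1.81), Zfp42 (-1.80), Klf2 (-1.53), Tbx3 (-1.30) and Dppa3 (-1.14) fell too, in log2 units.

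Fgf4, the ligand by which ESCs drive their own exit from the naive state, was the 1 gene of this list that rose. Its level was 227, 144 and 152 TPM in KO d6 and 52.7, 53.4 and 43.9 TPM in Ctrl d4, a log2 difference of 1.76 ± 0.13 (limma adjusted p = 9.93e-09). All KO d6 libraries were above all Ctrl d4 libraries. Esrrb and Tcl1 lie on chromosome 12, Klf2 and Zfp42 on chromosome 8 and Dppa3 on chromosome 6. Without the 4 shifted chromosomes, 7 of 8 naive genes fell with a median of -2.05.

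General pluripotency genes, which naive and epiblast cells share, did not move together. Of 16 genes 6 rose (37.5%), 7 fell (43.8%) and 3 were not called, beside 20% higher and 35.7% lower over all genes. The median was -0.13, and its sign turned with median-ratio rescaling (0.03). Pou5f1, the central factor of both states, was at 718, 561 and 678 TPM in KO d6 and 525, 436 and 397 TPM in Ctrl d4 (log2 difference 0.53 ± 0.10, limma adjusted p = 0.000295). Its lowest KO d6 library was just above the highest Ctrl d4 library, and Pou5f1 lies on chromosome 17, which was higher as a whole. Ctrl d6 had 101 ± 11.3 TPM. Nanog, its partner in ESCs, went the other way, with 332, 281 and 286 TPM against 729.8, 629 and 534 TPM (-1.06 ± 0.12, limma adjusted p = 8.58e-07), and lies on chromosome 6, which was lower as a whole. Sox2, shared by pluripotent and neural cells, was 538 ± 47.9 TPM in KO d6, 843 ± 51.9 TPM in Ctrl d4 and 538 ± 43.1 TPM in Ctrl d6.

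Genes of this list that exceeded every Ctrl day were Utf1, Tdgf1, Tcea3 and L1td1. Utf1, a chromatin protein of pluripotent cells, was at 1208, 1564 and 1731 TPM in KO d6, at 439, 505 and 403 TPM in Ctrl d4 and at 844 TPM on average in KO d4. The log2 difference to Ctrl d4 was 1.73 ± 0.16 (limma adjusted p = 8.28e-08), with no overlap. Tdgf1, the Nodal co-receptor Cripto, was at 519, 291 and 312 TPM against 104, 92.3 and 89.1 TPM. Among 12 Nodal pathway genes, which maintain the epiblast, 2 rose (Tdgf1 and Nodal itself, 0.37) and 5 fell. These shares, 16.7% and 41.7%, were near the 20% higher and 35.7% lower of all genes. The call of Nodal was lost in the fit of the 6 libraries alone and without the third Ctrl d4 library. The receptors Acvr1b (-0.53), Acvr2a (-0.60) and Acvr2b (-1.02), the transducer Smad2 (-1.04) and the ligand Gdf3 (-1.43) fell, while the feedback inhibitors Lefty1 (-0.24) and Lefty2 (-0.02) were not called.

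Postimplantation epiblast genes were far higher in KO d6 than in Ctrl d4, and most exceeded every Ctrl day, taking the labels as deposited. Of 10 genes, 9 rose and none fell, against 20% higher over all genes, and the median log2 difference was 3.27. The median was 3.49 against Ctrl d0 and 3.01 against Ctrl d6, and 7 of the genes were higher than Ctrl on every day (6.71% of all genes were). Otx2 (GRCm38, chr14:48657677-48673819), the transcription factor that redirects Pou5f1 on exit from the naive state, was at 166, 153 and 164 TPM in KO d6 and 6.44, 5.38 and 7.94 TPM in Ctrl d4. Its log2 difference was 4.43 ± 0.16 (limma adjusted p = 3.22e-12), and its Ctrl means stayed between 3.96 and 9.14 TPM from d0 to d6. In KO d4 it was at 95.5 ± 6.85 TPM.

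Fgf5, the classical epiblast ligand, was at 87.1, 94.9 and 115 TPM in KO d6 and 6.18, 7.49 and 7.04 TPM in Ctrl d4 (3.66 ± 0.21, limma adjusted p = 4.1e-10). Ctrl reached its highest mean of Fgf5 at d4, and the lowest KO d6 library was still far above it. Pou3f1, a POU factor of the epiblast and of neural precursors, was at 137, 123 and 133 TPM against 8.81, 8.67 and 10 TPM (3.70 ± 0.15, limma adjusted p = 8.46e-12). Fgf8, also an epiblast ligand, was 13.6 ± 1.21 TPM against 0.729 ± 0.391 TPM (3.10). Zic2 (1.41) and Zic5 (1.92), zinc finger factors of primed cells, exceeded Ctrl on every day as well. Foxd3 and Fgf15 rose over Ctrl d4 but not over all Ctrl days: Foxd3 had 37.3 TPM against 40.9 TPM in Ctrl d0, and Fgf15 38.1 TPM against 27.6 TPM in Ctrl d6. Sall2 (0.27) was the 1 gene not called, although it was called higher with voom on recovered reads (0.44, limma adjusted p = 0.00234).

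FGF pathway genes moved both ways, with 4 of 7 ligands higher and 3 of 4 receptors lower. Of 19 FGF genes 6 rose (31.6%) and 8 fell (42.1%), beside 20% higher and 35.7% lower over all genes. The median of -0.04 turned sign with median-ratio rescaling (0.11). The genes that rose were the ligands Fgf4, Fgf5, Fgf8 and Fgf15, the target Etv5 (0.79) and the inhibitor Spry1 (1.61). The receptors Fgfr1 (-1.38), Fgfr2 (-1.87) and Fgfr3 (-0.97) fell, as did the ligand Fgf17 (-0.75) and the inhibitors Spry2 (-0.40), Spry4 (-1.36), Spred1 (-0.52) and Spred2 (-0.74). The decrease of Fgf17 was lost under most of the other settings tried. Fgfr4 (0.57), the ligands Fgf3 (0.05) and Fgf10 (-0.35), and the targets Etv4 (-0.04) and Dusp6 (0.29) were not called, although Fgfr4 was called higher under 7 of the other settings and Dusp6 under 2, and Spry2 lost its call under 2.

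**Figure D3:**
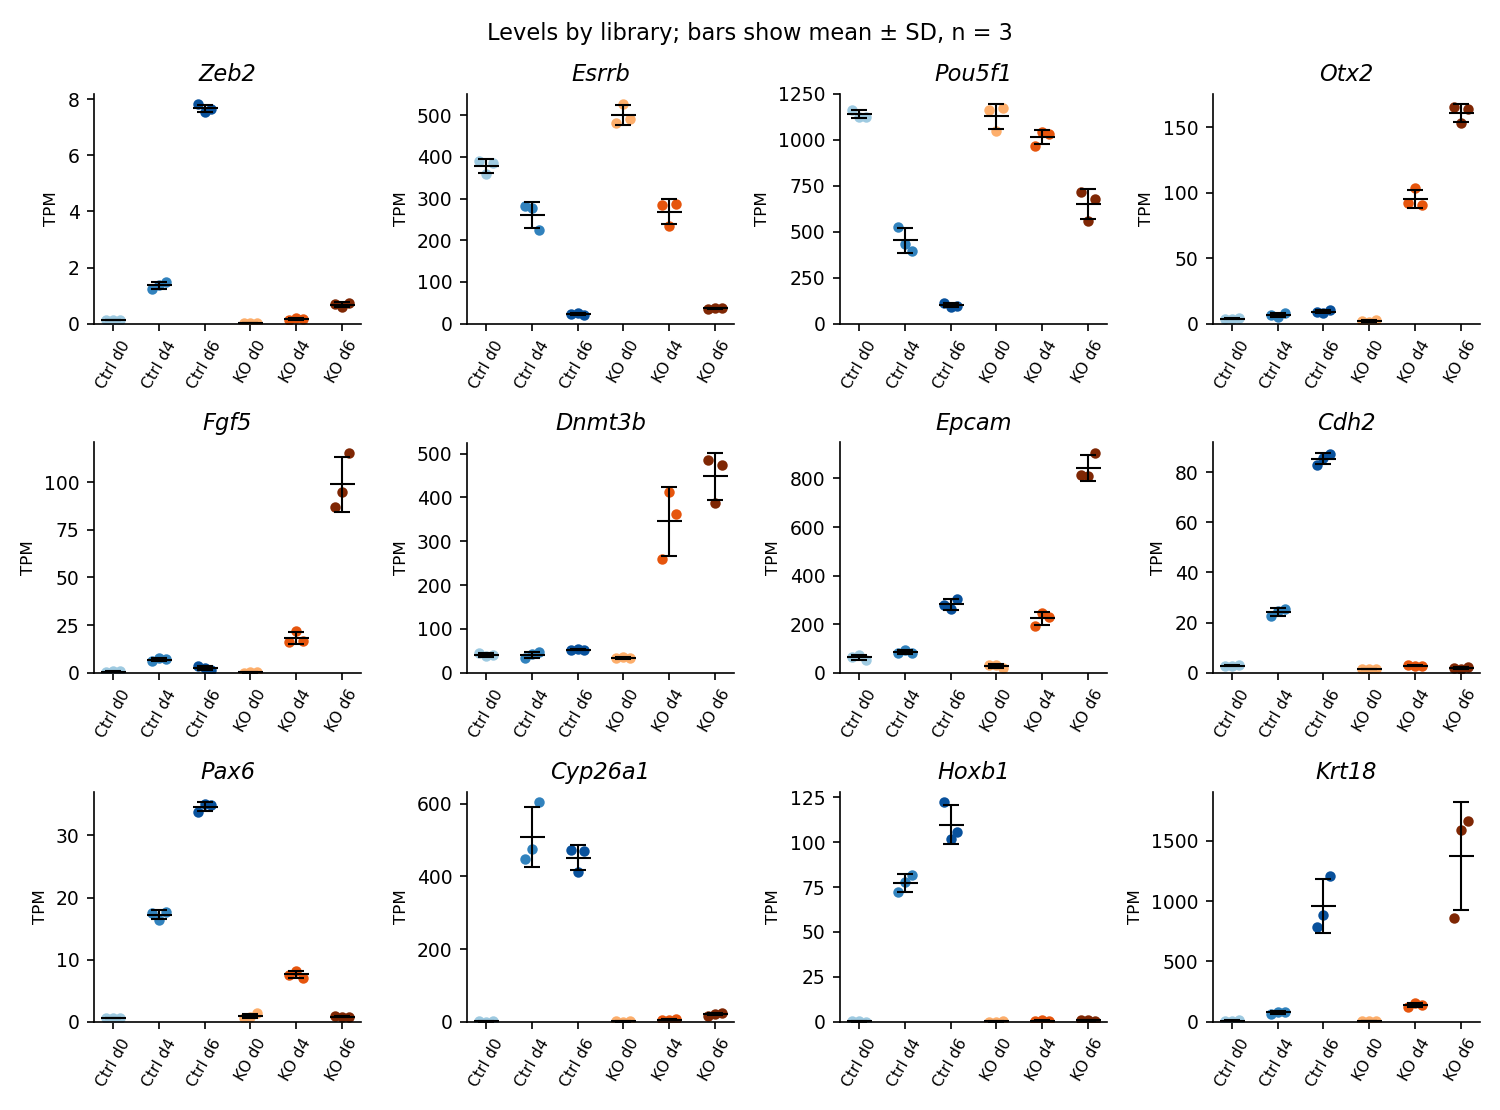
Levels of 12 genes in TPM (vertical axes, each starting at 0) in the 18 libraries, by group (horizontal axis), with the mean and SD of 3 libraries. Otx2, Fgf5, Dnmt3b and Epcam are highest in KO d6, whereas Cdh2, Pax6, Cyp26a1 and Hoxb1 are high in Ctrl d4 and Ctrl d6 and low in KO d6.

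Enzymes of DNA methylation split by kind. The de novo enzymes and their cofactor were higher in KO d6 than in Ctrl on every day, while the maintenance enzyme Dnmt1 was lower than on every day. Dnmt3b was at 484, 387 and 474 TPM in KO d6 and 33, 42.5 and 46.4 TPM in Ctrl d4, a log2 difference of 3.44 ± 0.15 (limma adjusted p = 1.98e-11), with Ctrl means no higher than 52.7 TPM on any day. Dnmt3l, the catalytically inactive cofactor, was 172 ± 31.7 TPM against 21.2 ± 4.54 TPM (2.97), and Dnmt3a 49 ± 12.9 TPM against 26.3 ± 0.481 TPM (0.84). The maintenance enzyme was at 255 ± 5.89 TPM against 444 ± 12.3 TPM (-0.79), and its partner Uhrf1 was not called (-0.06).

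The TET enzymes, which oxidise methylcytosine, all fell relative to Ctrl d4. Tet1 was at 55.1, 37.6 and 38.2 TPM in KO d6 and 73.7, 61.5 and 62 TPM in Ctrl d4 (-0.60 ± 0.13, limma adjusted p = 0.00069), above the 17.8 TPM of Ctrl d6, and its call was lost in the fit of the 6 libraries alone (limma adjusted p = 0.0121). Tet2 was at 9.64, 3.77 and 2.68 TPM against 15.6, 16 and 16 TPM (-1.56), with 1 KO d6 library well above the other two. Tet3 was 9 ± 0.647 TPM against 22 ± 2.72 TPM (-1.20).

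Epithelial genes were higher in KO d6 than in Ctrl d4, and most were higher than in Ctrl on every day. Of 15 genes 14 rose and none fell, the median log2 difference was 2.54, and 11 exceeded Ctrl on every day. Epcam, an adhesion molecule of epithelia, was at 813, 810.1 and 904 TPM in KO d6 and 82.1, 93.2 and 81.1 TPM in Ctrl d4 (3.29 ± 0.15, limma adjusted p = 2.67e-11), and at 281 TPM on average in Ctrl d6. Cdh1 (GRCm38, chr8:106603351-106670246), which encodes E-cadherin and is a known target of Zeb2, was at 503, 563 and 617 TPM in KO d6 and 299.7, 312 and 306 TPM in Ctrl d4. The groups did not overlap, with a difference of 0.87 ± 0.08 (limma adjusted p = 5.82e-08), while the genes of its chromosome were lower as a whole.

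Tight junction genes rose with them. Cldn7 was 118 ± 21.9 TPM against 10.6 ± 1.25 TPM (3.36), Cldn6 783 ± 160.4 against 132 ± 11.3 TPM (2.54) and Cldn4 611 ± 103 against 177 ± 14.5 TPM (1.77). The polarity gene Crb3 (2.92), the trafficking gene Rab25 (2.54), the junction gene Ocln (1.58), the epithelial regulators Grhl2 (2.72) and Ovol2 (1.45) and the splicing regulator Esrp1 (1.73) rose as well. Cldn3 (2.76) rose over Ctrl d4 but not over every day, and Esrp2 (0.18), on chromosome 8, was called higher only with chromosome medians removed (0.80).

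Mesenchymal genes moved both ways, with a balance that depended on scaling. Of 11 such genes 6 fell (54.5%, against 35.7% of all genes), Zeb2 itself among them, and 1 rose (9.09%, against 20%). The median of -0.49 is the value of Zeb2. With quantile normalization 4 rose and 5 fell (median -0.15), and with voom on recovered reads or chromosome medians removed 4 rose and 6 fell. Cdh2, which encodes the N-cadherin of neural and mesenchymal cells, was at 1.96, 1.66 and 2.27 TPM in KO d6 and 22.5, 24.7 and 25.3 TPM in Ctrl d4 (-3.09 ± 0.10, limma adjusted p = 2.35e-12), below even Ctrl d0 (2.72 ± 0.228 TPM). Zeb1, the closest relative of Zeb2, was 2.68 ± 0.637 TPM against 17 ± 0.947 TPM (-2.30), and the intermediate filament gene Vim 28.2 ± 3.35 against 63.7 ± 3 TPM (-1.15), and both were lower than Ctrl on every day. Fn1 (-1.22) and Snai2 (-1.64) fell, Sparc rose (1.98), and Snai1 (-0.28) and Twist1 (0.64) were not called. Twist1, on chromosome 12, was called higher under 4 of the other settings, with a log2 difference of 1.25 with chromosome medians removed.

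The promoter sequences of Epcam, Nanog and Pou5f1 are shown because the CACCT core bound by Zeb2 can be read in them beside the levels above. Each is the 250 bases before the start of the gene on the plus strand of GRCm38.p6, from RefSeq, with CACCT or its reverse complement AGGTG in capitals. CACCTG and its reverse complement CAGGTG contain these letters.
Epcam chr17:87635729-87635978: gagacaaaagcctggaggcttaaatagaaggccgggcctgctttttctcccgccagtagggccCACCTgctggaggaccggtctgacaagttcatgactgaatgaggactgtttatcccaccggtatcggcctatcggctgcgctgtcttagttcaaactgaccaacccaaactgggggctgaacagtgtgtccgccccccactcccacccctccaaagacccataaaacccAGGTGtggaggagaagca
Nanog chr6:122707239-122707488: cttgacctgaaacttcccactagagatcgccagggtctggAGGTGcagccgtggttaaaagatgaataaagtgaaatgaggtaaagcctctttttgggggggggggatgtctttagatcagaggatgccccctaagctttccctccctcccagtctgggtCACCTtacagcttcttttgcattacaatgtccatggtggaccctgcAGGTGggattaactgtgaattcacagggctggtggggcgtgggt
Pou5f1 chr17:35505782-35506031: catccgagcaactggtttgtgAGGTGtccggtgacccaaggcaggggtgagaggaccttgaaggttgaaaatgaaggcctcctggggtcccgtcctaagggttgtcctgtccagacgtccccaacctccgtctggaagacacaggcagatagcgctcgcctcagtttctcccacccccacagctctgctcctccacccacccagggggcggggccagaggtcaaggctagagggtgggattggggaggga

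The Epcam window held 2 CACCT matches, both of them CACCTG. The Nanog window held 3, of which 1 was CACCTG, and that of Pou5f1 held 1, which was not. RefSeq promoters were matched by symbol for 7223 of the 10965 genes, 1 window a gene (the first listed, as also for Nanog and Pou5f1, which have a second). CACCTG on either strand was found in 19.3% of the 1552 windows of genes called higher in KO d6, in 15.4% of the 2840 of genes called lower and in 14.8% of the 2831 of genes not called. Among genes that differed from Ctrl on every day it was found in 22.2% of 526 higher and 12.5% of 720 lower genes. The shorter CACCT was found in 48.8%, 41.5% and 43.5% of the higher, lower and uncalled genes, beside 45.8% of all 27025 windows in the reference, where CACCTG stood in 17.1%. In the epithelial list 7 of 11 windows held CACCTG, as did 1 of 6 of the epiblast list and none of 14 of the Hox genes. The share did not follow direction across lists. It was 4 of 9 in the naive list and 4 of 6 in the germ cell list, where most genes fell. It was 4 of 7 in the trophectoderm list, which was split, and none of 16 in the glycolysis list, where most genes rose. A match is only a description of letters in a window.

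Most neural progenitor genes were near the Ctrl d0 level in KO d6. Their median level was 1.32 TPM in KO d0, 4.13 TPM in KO d4 and 1.43 TPM in KO d6, beside 1.51 TPM in Ctrl d0 and 17.5 TPM in Ctrl d4. Taken gene by gene, however, the median log2 difference of KO d6 minus KO d4 was only -0.06. Some genes had lower means in KO d6 than in KO d4, such as Pax6 and Sox1. Others had higher means, such as Nes (50.1 against 18.8 TPM) and Sox3 (56 against 33.9 TPM). Of 20 genes 14 were lower than in Ctrl d4, 1 was higher and 5 were not called, with a median of -1.66. The median was -3.06 against Ctrl d6 and 0.22 against Ctrl d0, and 16 of the genes were nearest to Ctrl d0. Pax6, a determinant of neuroectoderm, was at 0.934, 0.827 and 0.715 TPM in KO d6 and 17.6, 16.4 and 17.7 TPM in Ctrl d4 (-3.32 ± 0.12, limma adjusted p = 4.05e-12). It was higher in KO d4, at 7.62 ± 0.576 TPM, than in KO d6 (log2 difference -2.24, limma adjusted p = 1.17e-09). Sox1, among the earliest neuroectoderm genes, was 10.9 ± 2.14 TPM against 105 ± 15.4 TPM (-3.16 ± 0.16, limma adjusted p = 1.23e-10) and was likewise higher in KO d4, at 73.1 ± 6.62 TPM. Sox1, Irx3 and Irx5 lie on chromosome 8, and without the 4 shifted chromosomes the median of the list was -1.08.

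Other genes of this list that were lower included the homeodomain factors Meis1 (-3.66), Meis2 (-4.11), Irx3 (-3.06), Irx5 (-2.31), Gbx2 (-1.88) and Lhx2 (-1.44), and the zinc finger genes Tshz1 (-4.61) and Zfp521 (-2.76). Sox21 was lower than Ctrl on every day, with 1.8 ± 0.731 TPM against 19.9 ± 3.51 TPM in Ctrl d4. Nes, the intermediate filament nestin, was the 1 gene that rose, at 42.2, 55.6 and 52.5 TPM against 10.8, 13.7 and 13.3 TPM (1.91 ± 0.14, limma adjusted p = 6.78e-09), while Ctrl d6 had 93.5 ± 5.38 TPM. Sox3, a partner of Sox2, was at 38.4, 60.5 and 69.1 TPM against 45.6, 58.9 and 57.8 TPM. Its groups overlapped and it was not called (0.02 ± 0.25), and it was far above Ctrl d0 (2.56 ± 0.732 TPM). Dbx1, a marker of later interneuron progenitors, was near 0 in both groups and at 383 ± 32.7 TPM in Ctrl d6.

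Neurogenic and neuronal genes were lower or not called with few exceptions. Of 14 genes 8 fell (57.1%, against 35.7% of all genes) and 2 rose (14.3%, against 20%), with a median of -1.02. Tubb3, the neuronal tubulin, was 37.2 ± 6.72 TPM against 132 ± 13.6 TPM (-1.81) and lower than Ctrl on every day. Neurog1 (-2.77) and Nhlh1 (-3.28), proneural bHLH factors, were also lower than on every Ctrl day, and Stmn2 (-2.02), Dcx (-1.74), Neurod4 (-1.48), Mapt (-0.85) and Dll1 (-1.18) fell. The call of Dll1 was lost in the fit of the 6 libraries alone (limma adjusted p = 0.0111). Elavl3, a neuronal RNA-binding protein gene, rose (37.8 ± 6.75 against 15.7 ± 0.231 TPM, 1.21), as did the Notch ligand gene Dll3 (0.95). Tubb3 lies on chromosome 8, and without the 4 shifted chromosomes the median of this list was -0.47.

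Most Hox genes and retinoic acid response genes were high in Ctrl d4 and low in KO d6. By the labels, Ctrl d4 came before retinoic acid was added to the medium and KO d6 after 2 days with it. The median level of the retinoic acid response genes was 63.2 TPM in Ctrl d4, 62.4 TPM in Ctrl d6 and 6.66 TPM in KO d6. Whether the labels of these groups are right was not tested. Of the table's Hox genes, 24 in all, 23 were lower in KO d6, against 35.7% of all genes, with a median of -3.66, and 22 were nearest to Ctrl d0. Hoxb1, an early anterior member, was at 0.879, 0.899 and 0.627 TPM in KO d6 and 72.2, 77.8 and 81.8 TPM in Ctrl d4. Its log2 difference was -5.44 ± 0.12 (limma adjusted p = 2.63e-14). Hoxb8 was 0.204 ± 0.0709 TPM against 42.8 ± 12.1 TPM (-5.15). Hoxc13, which was highest in Ctrl d0 (15.8 ± 1.89 TPM), was the 1 gene not called (-0.10).

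Of 18 retinoic acid response genes 15 were lower in KO d6 and 1 higher, with a median of -2.32. The median difference was -2.97 to Ctrl d6 and 0.40 to Ctrl d0. Cyp26a1, which degrades retinoic acid and is its most sensitive target, was at 16.7, 21.8 and 23.2 TPM in KO d6 and 448, 476 and 604 TPM in Ctrl d4 (-4.57 ± 0.16, limma adjusted p = 3.2e-12). It was nevertheless higher in KO d6 than in KO d4 (5.73 ± 0.961 TPM, log2 difference 1.68, limma adjusted p = 3.65e-07). Stra8, a retinoic acid target of germ cells, was at 7.17, 5.77 and 5.37 TPM against 238, 210.4 and 277 TPM (-5.09 ± 0.15, limma adjusted p = 6.52e-13), with no change from KO d4 that passed the test (limma adjusted p = 0.141).

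Receptors, binding proteins, enzymes and targets were all among those that fell. The receptors Rarb (-3.04) and Rara (-1.13), the binding proteins Crabp1 (-3.23) and Crabp2 (-1.58), the uptake receptor Stra6 (-3.69), the enzymes Cyp26b1 (-2.40), Dhrs3 (-2.01) and Aldh1a2 (-0.81) and the target Cdx1 (-3.53) were lower, of which Aldh1a2 lost its call under most of the other settings tried. Rdh10, which makes retinaldehyde, rose (0.64), and the receptor Rarg (-0.13) and the target Tgm2 (0.20) were not called.

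**Figure D4:**
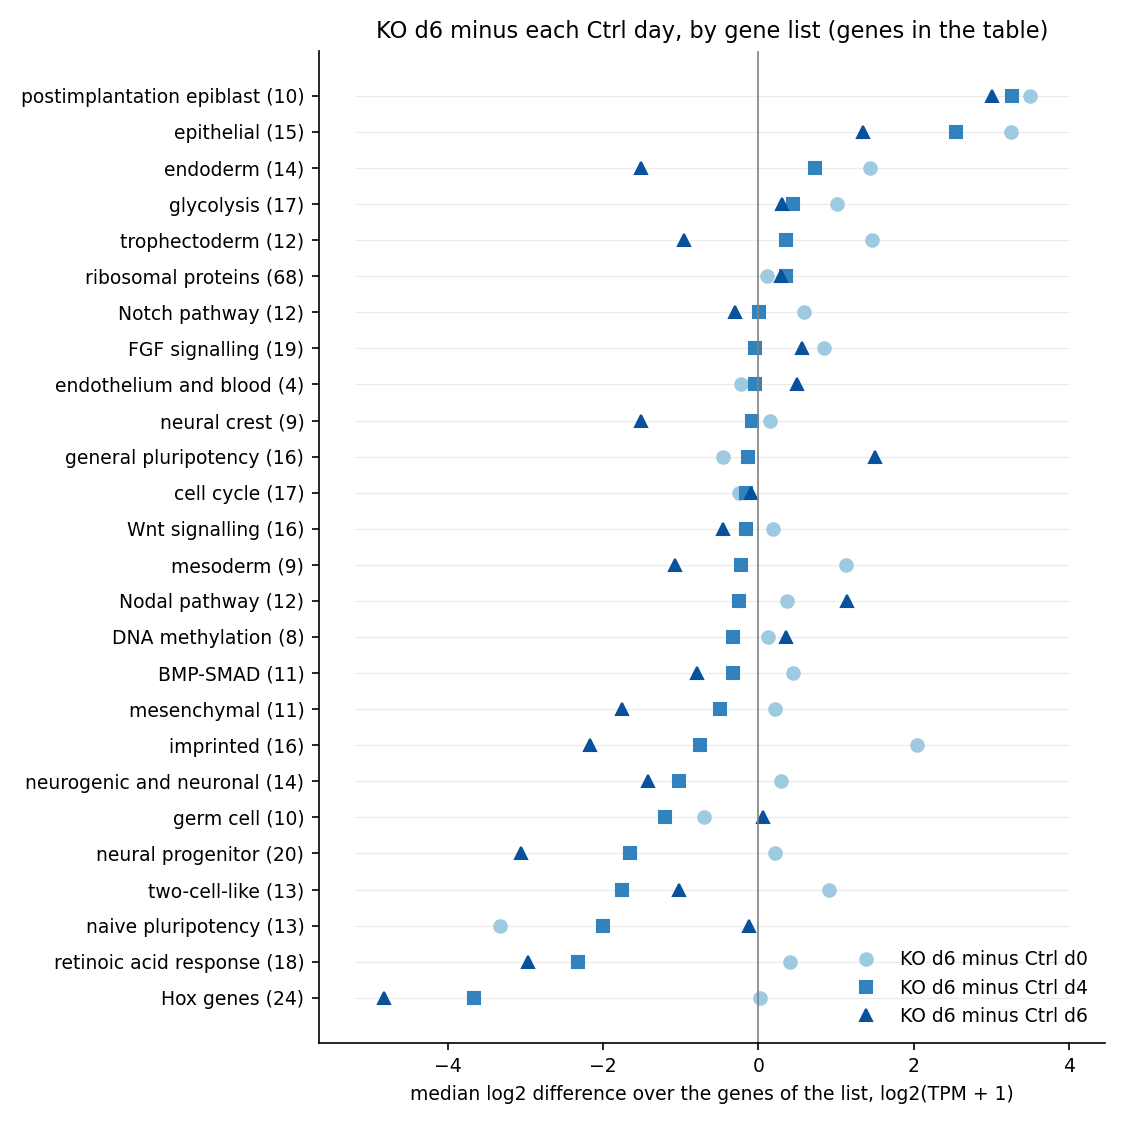
Median log2 difference, in log2(TPM + 1), of KO d6 minus Ctrl d0, Ctrl d4 and Ctrl d6 (horizontal axis) over the genes of each of 26 lists (vertical axis, number of genes in brackets). Epiblast and epithelial genes are above all 3 Ctrl days, Hox genes sit at Ctrl d0 and naive genes at Ctrl d6.

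Markers of other lineages gave no common direction. In the endoderm list, of 17 genes 14 were in the table. Of these 7 rose (50%, against 20% of all genes) and 2 fell (14.3%, against 35.7%), with a median of 0.73. The genes that rose encode secreted and absorptive proteins of visceral endoderm, among them Apoa1 (11.9 ± 5.91 against 0.32 ± 0.17 TPM), Ttr (4.7 ± 1.91 against 0.284 ± 0.128 TPM) and Cubn (10.5 ± 2.3 against 1.57 ± 0.532 TPM). Their means in Ctrl d6 were higher still, at 77.8, 24.4 and 34.9 TPM. The transcription factors Gata4 (0.19), Gata6 (-0.05) and Foxa2 (-0.19) were not called, and Foxa1 was lower (1.82 ± 1.27 against 32.8 ± 8.05 TPM, -3.65).

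In the mesoderm list, 9 of 19 genes were in the table, 3 rose (33.3%, against 20% of all genes) and 2 fell (22.2%, against 35.7%). Its median of -0.22 turned sign with chromosome medians removed (0.41). Meox1 (GRCm38, chr11:101877510-101894374), a homeobox gene of somites, had the largest decrease of all called genes, with 0.848, 0.643 and 0.672 TPM in KO d6 against 185, 209 and 229 TPM in Ctrl d4 (-6.92 ± 0.20, limma adjusted p = 6.52e-13). Eomes, a T-box factor of the primitive streak, was at 12.6, 9.34 and 7.85 TPM against 4.58, 3.59 and 2.69 TPM (1.24 ± 0.22, limma adjusted p = 9.7e-05) and exceeded every Ctrl day. Hand1 (4.02 ± 1.33 against 0.327 ± 0.078 TPM) and Tcf15 (11.3 ± 4.31 against 3.42 ± 0.638 TPM), bHLH factors of mesoderm, also rose.

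The trophectoderm list held 12 of 14 genes, of which 6 rose (50%, against 20% of all genes) and 4 fell (33.3%, near the 35.7% of all genes). Krt18, a keratin of simple epithelia, was at 858, 1595 and 1665 TPM in KO d6 and 66.5, 84.5 and 81.9 TPM in Ctrl d4 (4.07 ± 0.27, limma adjusted p = 2.36e-09). The first KO d6 library was lower than the other two, and Ctrl d6 had 961 ± 223 TPM. Krt8 (3.48) and Krt19 (2.76) rose too, whereas the transcription factors Tfap2c (9.09 ± 1.82 against 75.1 ± 4.38 TPM, -2.93), Tfap2a (-1.21), Gata2 (-0.86) and Tead4 (-1.24) fell and Gata3 (0.04) was not called. The call of Gata2 was lost under 7 of the other settings tried. Krt8 and Krt18 are also members of the epithelial list.

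Germ cell genes moved both ways. Of 10 genes 6 fell (60%, against 35.7% of all genes) and 3 rose (30%, against 20%), with a median of -1.21. Without the 4 shifted chromosomes 3 of 7 fell and 3 rose (median -0.09). Prdm1, the repressor that specifies primordial germ cells, was at 7.11, 6.02 and 6.19 TPM in KO d6 and 72.7, 79.3 and 84.2 TPM in Ctrl d4 (-3.42 ± 0.10, limma adjusted p = 8.23e-13), while Ctrl d0 and Ctrl d6 had 7.56 ± 0.298 and 8.45 ± 0.995 TPM and KO d4 19.5 ± 2.33 TPM. Nanos3, an RNA-binding protein of primordial germ cells on chromosome 8, was at 5.18, 1.18 and 0.821 TPM against 59.9, 52.3 and 53 TPM (-4.27). Prdm14, Tfap2c, Dppa3 and Dazl (-1.28) fell as well. The genes that rose exceeded every Ctrl day: Sycp3, of the meiotic chromosome axis, was at 72, 79.7 and 71.4 TPM against 7.52, 8.28 and 10.1 TPM (2.97 ± 0.17, limma adjusted p = 6.03e-10), Mael, of the piRNA pathway, was 72.9 ± 9.32 against 22.8 ± 2.08 TPM, and Dnd1, an RNA-binding protein gene, 12.5 ± 2.42 against 7.02 ± 0.926 TPM.

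Neural crest markers were split, with 4 higher and 4 lower (44.4% each) of 9 in the table, beside 20% higher and 35.7% lower over all genes. Ednrb (-3.33), Sox9 (-1.55), Snai2 and Tfap2a fell, and Foxd3, Erbb3 (1.16), Ets1 (1.10) and Msx1 (0.95) rose, Msx1 losing its call with a pseudocount of 0.1 and without the first library of either group. Of 12 endothelial and blood genes 4 were in the table, and of these Etv2 rose (11.9 ± 2.07 against 2.19 ± 1.38 TPM), Tek fell (-0.57, a call lost under 8 of the other settings), and Pecam1 (-0.23) and Flt1 (0.15) were not called. The table was filtered by the authors on level and variability, so a list gene that is low everywhere is not in it.

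**Figure D5:**
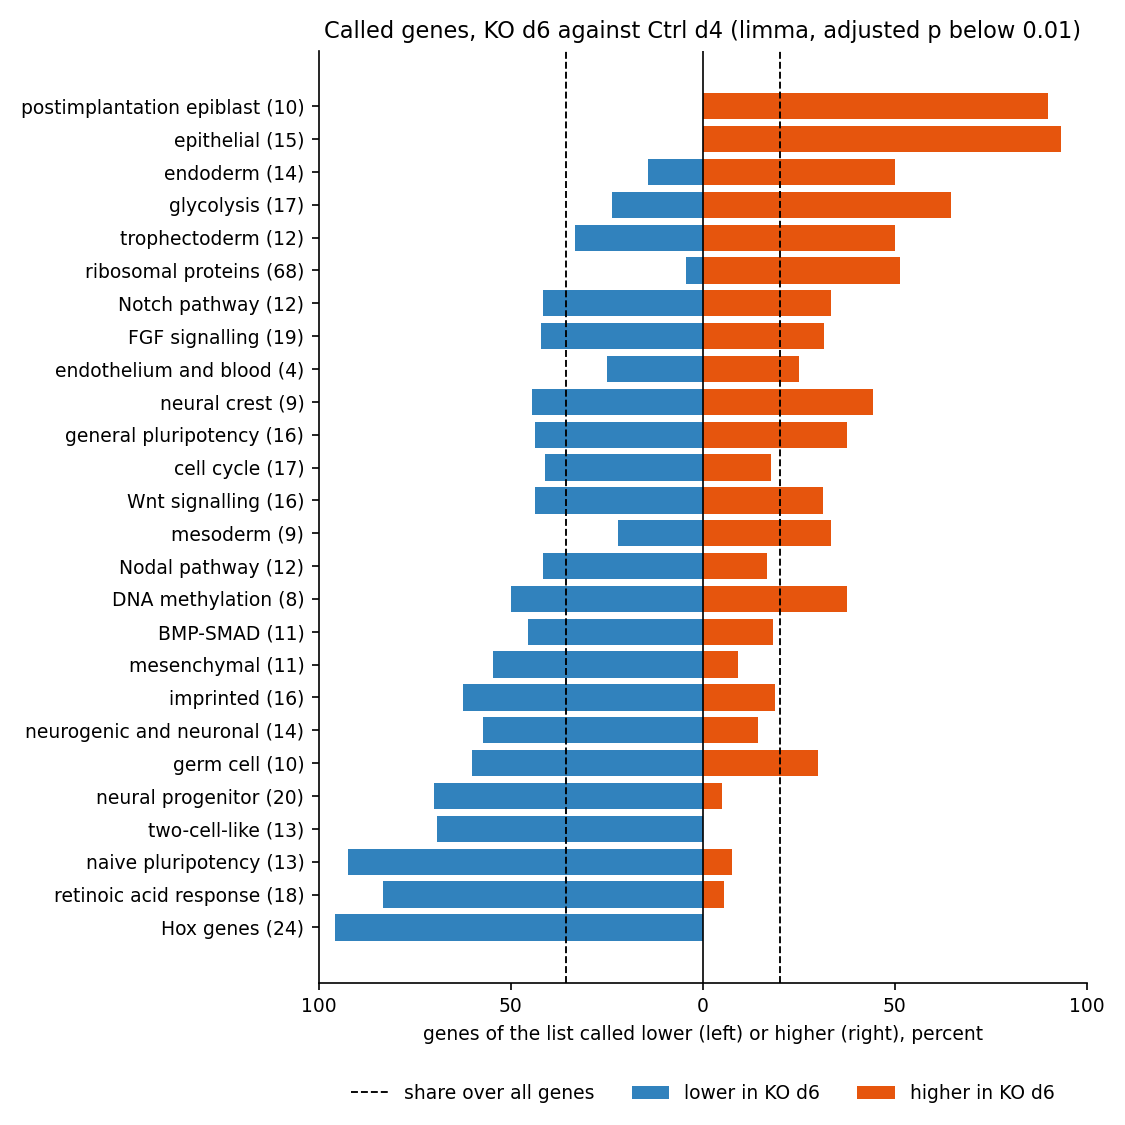
Percentage of the genes of each list called lower (left of 0) or higher (right of 0) in KO d6 than in Ctrl d4 at a limma adjusted p below 0.01 (number of genes in brackets). Dashed lines give the shares over all genes, 35.7% lower and 20% higher, and the Hox, naive, epiblast and epithelial lists reach 90% or more in 1 direction.

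Among all genes, the largest increases were those of contractile genes. Acta2, smooth muscle actin, was at 60.5, 166 and 167 TPM in KO d6 and 0.828, 1.05 and 1.33 TPM in Ctrl d4 (5.86 ± 0.36, limma adjusted p = 1.11e-09). Acta1 (5.60), the skeletal actin, whose coding sequence is close to that of Acta2 so that short reads may be split between them, and Tagln (615 ± 223 against 13.9 ± 1.42 TPM, 5.30), an actin-binding protein of smooth muscle, followed. Their means in Ctrl d6 were 54.1, 79.6 and 162 TPM. The first KO d6 library had less Acta2 than the other two. Cbr3, a carbonyl reductase, was at 273, 315 and 364 TPM against 7.14, 7.99 and 8.09 TPM (5.18 ± 0.09, limma adjusted p = 1.05e-15), with 209 ± 7.44 TPM in KO d4 and 81.2 ± 7.82 TPM in Ctrl d0. Enpp2, which encodes autotaxin (4.29), the trypsin inhibitor Spink1 (4.08) and the carbonic anhydrase Car4 (4.04) were also among the 10 largest increases, with Otx2 and Krt18.

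The 10 largest decreases, beside Meox1, Hoxb1, Hoxb8, Stra8 and Tshz1, were of genes with various functions. Arg1, arginase, was at 0.854, 1.55 and 0.203 TPM in KO d6 and 109, 112 and 111 TPM in Ctrl d4 (-5.97 ± 0.24, limma adjusted p = 9.73e-12). Zfp703, a corepressor on chromosome 8, was 1.66 ± 0.588 against 141 ± 28.4 TPM (-5.74), and Igfbp5, which binds insulin-like growth factors, 2.58 ± 0.337 against 96.7 ± 16 TPM (-4.76). Arg1, Zfp703 and Igfbp5 were high in Ctrl d6 as well. The imprinted gene Peg12 (-4.95) and BC048679 (-4.75) were highest in Ctrl d4.

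Genes among those farthest outside the Ctrl course were Otx2, Enpp2, Fgf5 and Dok2 on the high side. Dok2, an adaptor of tyrosine kinases, was at 63.9, 59.9 and 51.3 TPM in KO d6 with no Ctrl mean above 4.53 TPM. On the low side stood Olig3, Peg12, Cdx1, Ackr3 and Sox21. Olig3, a bHLH factor of dorsal neural progenitors, was at 0.308, 0.14 and 0.586 TPM with no Ctrl mean below 8.55 TPM, and Ackr3, a chemokine receptor, at 3.36, 2.48 and 3.37 TPM with none below 19.4 TPM.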

How the data were processed

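RNA-seq of total RNA gave 18 libraries, 3 for each of 2 genotypes on d0, d4 and d6. The authors aligned reads to GRCm38 with TopHat2 2.0.13, counted them per annotated gene with featureCounts 1.4.6 and converted the counts to TPM. They removed short noncoding genes, genes that did not reach 5 TPM in at least 3 libraries and the genes that varied least, so genes low in every library were not analysed here. The deposited TPM table also holds 3 score columns of the authors on the variability of each gene, which were not used. Whether counting used the strand is not given in the sources used here, so overlapping genes are uncertain.

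Of 11046 rows, 81 that repeated a gene were left out. Differences were tested with limma 3.58.1 (R 4.3.3) on log2(TPM + 1), so fold changes of low genes are understated. The fit had 1 mean for each of 6 groups over 18 libraries, a trended prior and two-sided p-values with Benjamini-Hochberg adjustment over all 10965 genes, with a call at an adjusted p below 0.01. Positions came from GENCODE M21, found for 10922 genes. Whole reads could be recovered from the TPM of 10965 genes, which gave the depth, and TPM of the table summed to 880331 to 900309 per library. Tested on simulated data of 10965 genes for this comparison, the fit recovered 96% of genes changed by a log2 difference of 1.5 and 99% of those changed by 3. The simulation gave every gene the same fixed spread, changed no genes of low level and held no chromosome shift. Recovery in the real libraries may therefore be lower. Promoter windows were cut to the 250 bases before the start.

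Genes were named if they belong to 1 of 26 lists, if they were among the 10 largest called changes per direction without overlap of libraries (predicted Gm genes left out), or among the 5 per direction farthest from the nearest Ctrl day. Some genes that this rule names are not reported here. The comparison and the lists were chosen with earlier results of these data known. Libraries of a group are independent experiments, and nothing ties them to separate lines. Correlations of deviations between KO d6 and Ctrl d4 libraries of the same replicate number were 0.139, 0.336 and -0.0926. They do not settle whether the number pairs libraries, and the main fit did not use it. Alternatives were pseudocounts of 0.1 and 5, a mean TPM of at least 10, median-ratio and quantile scaling, the 6 libraries alone, no trend, replicate number as a block, removal of chromosome medians, voom on recovered reads, a log2 threshold of 0.5 and each library left out. Leaving out chromosomes 6, 8, 12 and 17 was added after seeing the data.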

Additional observations from a re-analysis of the deposited data

How the results depend on the processing

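Counts of genes differing from Ctrl d4 at an adjusted p below 0.01 stayed within 1.5 times of the value given under every alternative, from 4570 without the 4 shifted chromosomes to 6241 with voom on recovered reads. Leaving out 1 library gave 5434 to 6099 genes, 1916 to 2128 higher and 3518 to 3971 lower, and 631 to 720 higher and 807 to 1002 lower than Ctrl on every day. The order of the latter turned with scaling, to 893 higher and 758 lower (median-ratio), 940 and 866 (quantile), 925 and 743 (chromosome medians removed) and 1040 and 704 (voom). The share higher among genes past a log2 difference of 1 was 39.1%, and 52.9%, 50.9%, 54.4% and 51.1% under the same 4 settings. Counts with a log2 difference beyond 1 (729 higher, 1134 lower, 1863 in all) moved more. They were 467, 631 and 1098 with a pseudocount of 5, 405, 714 and 1119 at a mean TPM of at least 10, and 1616, 2889 and 4505 with a threshold of 0.5, and 726 were lower without the 4 chromosomes, where fewer genes were tested. The median log2 difference over all genes was 0.0303 with median-ratio rescaling, -0.0123 with quantile normalization, 0.0201 with chromosome medians removed, 0.0234 with voom and -0.0674 without the 4 chromosomes, so directions of small differences depend on scaling. With the replicate number as a block (replicate block) 6004 genes differed and 1870 passed the log2 threshold of 1, and libraries 1 and 2, but not 3, correlated best with their own number. Of the 193 genes named, 17 gained or lost a call under at least 1 alternative and none turned direction across a call. The depth of 9622622 to 15617675 reads per library limits genes near 0 TPM.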

Other observations

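Further lists are given here beside the shares of all genes, 20% higher and 35.7% lower in KO d6 than in Ctrl d4. Of 17 glycolysis genes 11 were higher and 4 lower (median log2 difference 0.44). The enzymes Pgk1 (0.59) and Aldoa (1.01) and the lactate transporter Slc16a3 (1.43) were among those that rose, and the glucose transporters Slc2a1 (777 ± 97.9 against 1384 ± 136 TPM, SD, n = 3) and Slc2a3 (498 ± 34.2 against 1316 ± 12.3 TPM) fell. Of 68 ribosomal protein genes 35 were higher and 3 lower (median 0.35), and reads of these genes may be shared with processed pseudogenes. Of 16 imprinted genes 10 were lower and 3 higher (median -0.75, -0.18 with chromosome medians removed). Igf2, a fetal growth factor, was 8.23 ± 0.89 against 37.1 ± 5.21 TPM, Peg3 34.4 ± 3.14 against 211 ± 7.33 TPM, and the noncoding H19, next to Igf2, rose (165 ± 23.4 against 34.2 ± 4.4 TPM).

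Of 13 two-cell-like genes, which mark a rare state of ESC cultures, 9 fell and none rose (median -1.75), and their near-identical copies make single members uncertain. Among 17 cell cycle genes 7 fell (41.2%) and 3 rose (17.6%), shares near those of all genes, and after median-ratio rescaling 6 fell and 6 rose. The D-type cyclins moved apart: Ccnd2 was 6.43 ± 3.31 TPM in KO d6 against 172 ± 38.2 TPM in Ctrl d4 (-4.61), Ccnd3 18.4 ± 0.925 against 44.7 ± 4.79 TPM, and Ccnd1 rose from 51 ± 7.72 to 152 ± 14.7 TPM. In the Wnt list 5 of 16 genes rose and 7 fell. The effectors Tcf7 (1.35) and Lef1 (1.54) and the ligand Wnt8a (1.66) exceeded every Ctrl day, and the ligand Wnt3a (-2.71) and the inhibitor Sfrp1 (-2.26) were below every Ctrl day. In the Notch list 4 of 12 rose and 5 fell, with the bHLH gene Hes6 up (1.86) and the targets Hes5 (-1.08) and Hey1 (-1.85) down, Hes5 losing its call under 7 of the other settings. In the Wnt list 6 rose and 6 fell with chromosome medians removed, and in the Notch list 5 and 5. In the BMP-SMAD list 2 of 11 rose and 5 fell, again near the shares of all genes (4 and 4 after median-ratio rescaling), with the target Id1 up (1.38) and the ligand Bmp7 down (-1.71).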
